A study of Mus musculus with 12 samples.

Results

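The comparison was between the livers of male mice conceived by in vitro fertilization (IVF) and those of males conceived naturally, over all genes of the deposited count table. Its members were the 6 libraries labelled male, 3 after IVF and 3 after natural conception, of 12 libraries in the series. The other 6 libraries came from females and entered the same model, in which they helped to estimate the spread and served for the test of a difference between the sexes. All animals were offspring of CF1 females and B6SJL males and were 39 weeks old. The IVF offspring were made by a protocol of the Jackson Laboratory, and no treatment, transgene or deletion was named for either group. Messenger RNA was selected by its poly-A tail from part of each frozen liver, and every title carries a different animal number. The numbers of IVF male 2 and IVF female 1 share the part before the point, whose meaning the labels do not give, and the model treats these animals as unrelated. The labels do not say which animals were littermates, so the p-values measure the spread between these animals, which may share litters.

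In IVF, eggs are fertilized outside the body and the embryo spends its first divisions in a culture medium before transfer to a recipient female. The study asked whether this leaves traces in the adult liver, and whether females and males differ in this. The adult liver burns and makes fat, clears hormones and foreign compounds through oxidizing and conjugating enzymes, and secretes most plasma proteins. A group of these plasma proteins, the acute phase proteins, is induced by interleukin-6 and interleukin-1 when an animal is inflamed or injured. Resident macrophages of the liver, the Kupffer cells, line its sinusoids and clear particles and dying cells from the blood.

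Library totals did not overlap between the groups. They were 14002847, 21046484 and 21762008 counts in IVF males 1, 2 and 3, and 24235375, 23448074 and 27832271 counts in natural males 1, 2 and 3. The 45S ribosomal RNA precursor Rn45s took 1.69% to 3.03% of the counts of IVF males and 2.27% to 3.76% of those of natural males. Levels below are CPM, that is, reads of a gene per library total, scaled between libraries by the trimmed mean of M-values (TMM). A count of 0 allowed up to 0.108 to 0.214 CPM in the 6 libraries, from counting error only. Of 24527 gene symbols, 13204 passed the filter on low counts. Pairs of males of 1 group correlated across genes at r = 0.969 to 0.980 on log2 CPM, and pairs across groups at 0.966 to 0.977. The first principal component of the 6 livers held 26.9% of the variance, and on it the groups overlapped. The hepatocyte markers albumin (Alb, 44666 to 60852 CPM) and transthyretin (Ttr, 2043 to 3127 CPM) were abundant in all 6 livers. Ass1, a urea cycle enzyme that also marks hepatocytes, had only 0.499 to 1.87 CPM in this table. The reason for this low value was not tested.

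One gene, Abcd2, rose in IVF males, and no gene fell, by edgeR's quasi-likelihood test with Benjamini-Hochberg adjustment over the 13204 genes. That is 0.00757% of the genes tested. An unadjusted p under 0.05 was found for 355 genes, or 2.69%, with 160 (1.21%) higher and 195 (1.48%) lower in IVF males. Every IVF male exceeded every natural male for 640 genes, or 4.85%, and was below every one for 537 genes, or 4.07%. Log2 fold changes were above 0 for 51.6% of genes and below 0 for 48.4%. These shares are the background for the counts given for each gene group below. Scaled by library size alone, the median of all genes was 0.14 instead of 0.01, and medians of gene groups that lay near 0 moved with it. For every gene other than Abcd2 the adjusted p was 1, so the differences described for them are values that did not pass the test. DESeq2 called 5 genes (0.0379%), 3 higher and 2 lower. The test of limma voom called 0, beside 375 genes at an unadjusted p under 0.05.

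**Figure D1:**
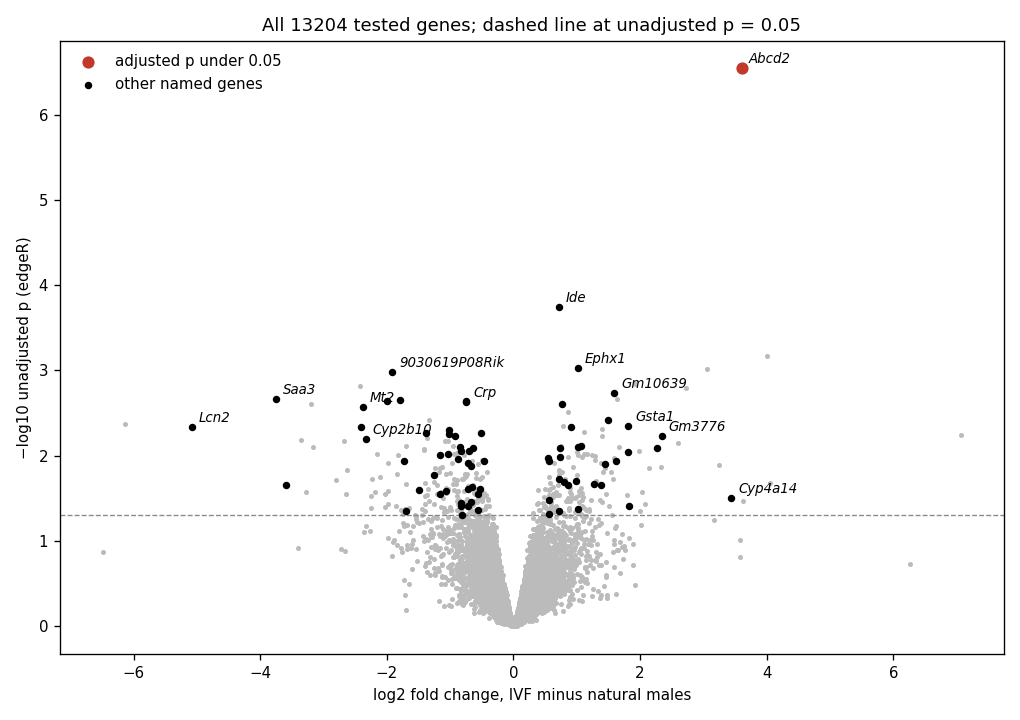
Each point is 1 of the 13204 tested genes, with the log2 fold change of IVF minus natural males on the x axis and −log10 of the unadjusted edgeR p on the y axis. The red point is Abcd2, at a log2 fold change of 3.61, and black points are the other genes chosen by the naming rule, none of which passed after adjustment.

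Abcd2 encodes a transporter that carries very long-chain and polyunsaturated fatty acids, as CoA esters, into the peroxisome. The gene lies on chromosome 15 (91145871 to 91191799, GRCm38). Its level was 9.61, 6.20 and 7.31 CPM in the IVF males, from 140, 126 and 146 counts. In the natural males it was 0.731, 0.549 and 0.593 CPM, from 16, 11 and 15 counts. The lowest IVF male thus stood far above the highest natural male, and within each group the 3 animals lay close together. The ratio of the means was 12.3. On the log2 scale the fitted change was 3.61 ± 0.35 (SE), at an edgeR adjusted p of 0.00381, and all 3 IVF males were higher. The call was lost without natural male 2, at an edgeR adjusted p of 0.0703, and without natural male 3, at 0.0739. It was kept without natural male 1, at 0.0472. The log2 fold changes were then 3.52, 3.57 and 3.73. By limma voom the adjusted p was 0.106, and by DESeq2 it was 7.51e-16. With the 6 male libraries thinned to equal totals the edgeR adjusted p was 0.00455.

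The other genes of peroxisomal fatty acid transport and oxidation did not share the pattern of Abcd2. All 41 listed genes passed the filter, and their median log2 fold change was -0.03, with 19 above 0, beside a median of 0.01 over all genes. Abcd3, a related transporter of the peroxisomal membrane, had a log2 fold change of 0.02, and catalase (Cat), which removes the peroxide formed in this oxidation, had 0.16. The list also holds Pmp22, lower at an unadjusted p under 0.05, which encodes a protein of peripheral myelin and is not a gene of this pathway.

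**Figure D2:**
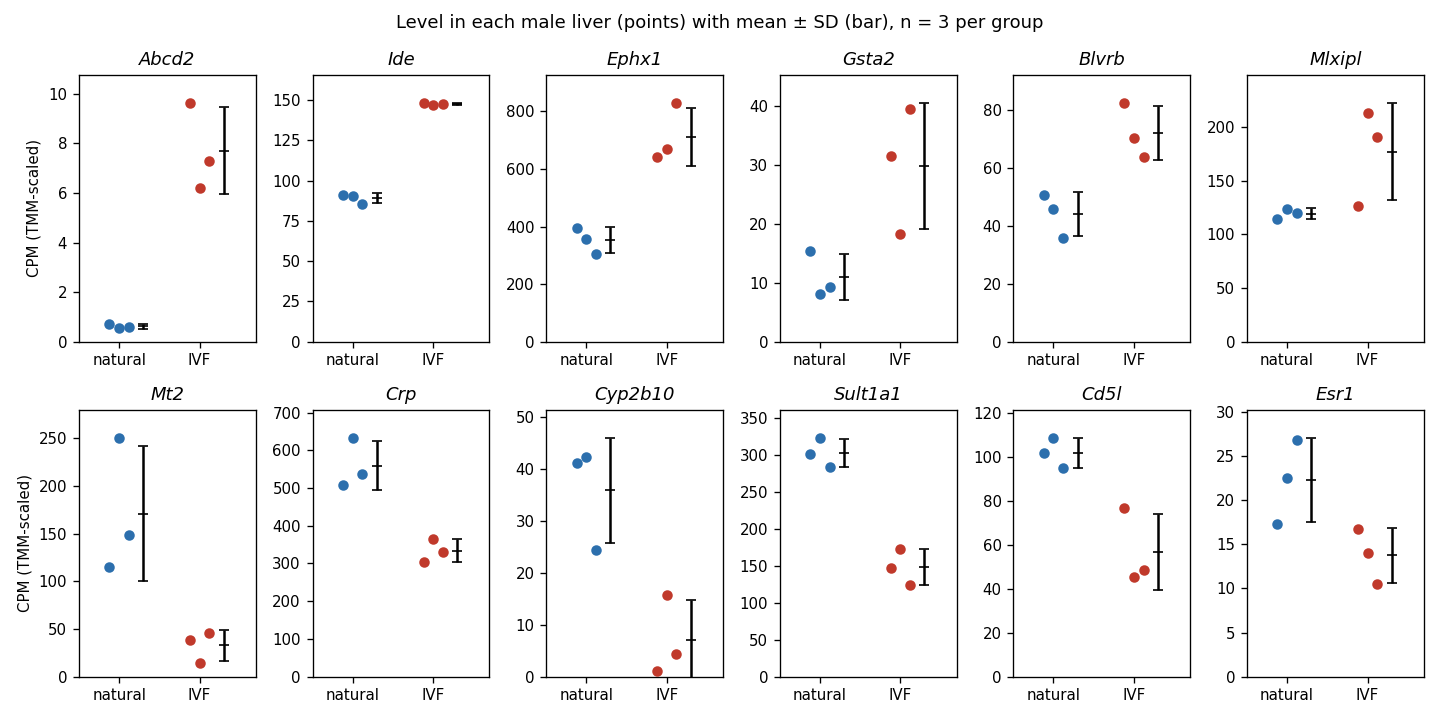
Each panel gives the TMM-scaled CPM of 1 gene in each of the 3 natural (blue) and 3 IVF males (red), with the mean and SD of each group as a bar (the lower bar of Cyp2b10 is cut at 0). The 12 genes were drawn from named genes whose groups do not overlap, and Abcd2 is the gene that passed the adjusted test.

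Among genes whose levels in IVF males were above the natural range throughout and averaged at least 5 CPM there, Ide and Ephx1 had the smallest unadjusted p after Abcd2. Ide encodes the insulin-degrading enzyme, a protease that breaks down insulin and other small peptides. It had 148, 147 and 147 CPM in the IVF males and 91.3, 90.6 and 85.6 CPM in the natural males. Both groups were tight, and the log2 fold change was 0.73 ± 0.13 (SE). DESeq2 called Ide with an adjusted p of 1.79e-09, against an adjusted p of 1 in edgeR. The other 26 genes of insulin and glucagon signalling had unadjusted p above 0.05. The list had a median of -0.09 and 9 of 27 tested members above 0. Groups did not overlap for 2 of these 27 on the higher side, Ide among them, and for 1 on the lower side. The shares over all genes were 4.85% and 4.07%. The lower one was Irs1, an adaptor of the insulin receptor, with 32.5, 43.7 and 33.8 CPM against 47.2, 44.4 and 44.6. For Irs1, IVF male 2 lay just below natural male 2.

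Ephx1 encodes microsomal epoxide hydrolase, which opens reactive epoxides left by oxidizing enzymes. It had 641, 668 and 828 CPM in the IVF males and 395, 357 and 305 CPM in the natural males. The groups stood well apart, at a log2 fold change of 1.01 ± 0.23 (SE), and DESeq2 gave an adjusted p of 0.0491. Plk2, a kinase of the polo-like family, had 12.2, 10.1 and 13.7 CPM against 7.72, 5.84 and 7.47. Clstn3, which encodes a calsyntenin, had 17.0, 12.2 and 12.6 CPM against 6.53, 8.64 and 4.74. Tbcel, which encodes a tubulin-binding cofactor, had 188, 107 and 97.9 CPM against 62.0, 85.7 and 61.5, with IVF male 1 well above the rest. Tdp2, a DNA repair phosphodiesterase, Brd8, a bromodomain protein, Leng8 and the long noncoding RNA 2810013P06Rik had log2 fold changes of 0.54, 0.55, 0.73 and 0.74.

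On the lower side, the smallest unadjusted p belonged to 9030619P08Rik, annotated as a transcribed pseudogene on chromosome 15 (75427606 to 75431829). It had 2.06, 2.95 and 0.751 CPM in the IVF males and 3.97, 7.74 and 10.0 CPM in the natural males. DESeq2 called it with an adjusted p of 0.0491. Tgfbr2, a receptor for transforming growth factor beta, had 24.2, 27.8 and 18.5 CPM against 39.3, 35.9 and 43.7. Igf1r, the receptor of insulin-like growth factor 1, had 3.98, 2.66 and 3.70 CPM against 6.72, 6.24 and 6.64. Both receptors were lower in every IVF male, at log2 fold changes of -0.75 ± 0.19 (SE) and -0.92 ± 0.28 (SE). Cdk6, a kinase of the cell cycle, had 36.1, 35.1 and 31.8 CPM against 50.5, 50.9 and 45.2. Scara5, a scavenger receptor that takes up ferritin, had 6.87, 5.26 and 9.76 CPM against 46.3, 9.79 and 31.7, so natural male 2 lay next to IVF male 3. Fam222a, Galns, a lysosomal sulfatase, and Cwf19l1 completed the named genes outside the groups below, with log2 fold changes of -1.80, -1.03 and -0.64.

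Acute phase genes had the lowest median of the 38 pathway lists, and their values divided the natural males. Of 36 listed genes 34 passed the filter, and the median log2 fold change was -0.82, with 1 above 0. The list held 15 genes lower at an unadjusted p under 0.05 and 0 called genes. Lcn2, a siderophore-binding protein of the acute phase, had 57.2, 12.99 and 12.96 CPM in the IVF males and 14.7, 1615 and 1173 CPM in the natural males. Saa3, a serum amyloid A gene, had 13.9, 4.28 and 4.00 CPM against 6.26, 174 and 115. For both genes natural males 2 and 3 were high, and natural male 1 lay among the IVF males. The same order held for Serpina3n, a protease inhibitor, with 845, 692 and 555 CPM against 683, 2484 and 2274. It also held for the haem carrier hemopexin (Hpx), with 4609, 2285 and 2399 CPM against 2814, 10662 and 8543.

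The mean over the acute phase genes of log2 CPM, centred on the 6 males, was -0.17, -0.66 and -0.67 in the IVF males and -0.23, 0.99 and 0.74 in the natural males. Natural male 1 thus lay within the IVF range. Without natural male 2 the list's median was -0.60, and without natural male 1 it was -1.12. Without IVF male 1 it was -1.08. DESeq2 called Saa3 with an adjusted p of 0.0207. For 4 of the 34 genes, Crp, Cp, Fgg and Stat3, all IVF males were below all natural males. Crp encodes C-reactive protein, and it had 305, 366 and 331 CPM in the IVF males and 508, 632 and 537 CPM in the natural males, natural male 1 included. Its log2 fold change was -0.74 ± 0.19 (SE). Stat3, which carries the interleukin-6 signal to the nucleus, had 110.9, 89.8 and 78.0 CPM against 111.1, 129 and 133.

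Saa3 was the acute phase gene that DESeq2 called, and its promoter was looked at for the letters of 2 factors of this response. The RefSeq sequence before its start (GRCm38.p6, minus strand, chr7:46715701-46715926) is shown with a match to the C/EBP motif in capitals.
Saa3: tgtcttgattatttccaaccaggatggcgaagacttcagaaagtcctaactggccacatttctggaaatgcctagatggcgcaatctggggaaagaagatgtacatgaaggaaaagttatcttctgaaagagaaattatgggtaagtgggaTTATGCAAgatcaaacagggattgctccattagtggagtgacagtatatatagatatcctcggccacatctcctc
The motif searched, TTGCNNAA on both strands, matched once, at base 152 of the printed sequence. The STAT motif TTCNNNGAA, searched on both strands, had 0 matches in these 226 bases. Of 32851 promoters in the RefSeq table, 9.56% held the C/EBP letters within 250 bases and 7.02% the STAT letters. A match here is a description of the sequence only.

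Metallothioneins, small proteins that bind zinc and copper and are induced by metals and glucocorticoids, had low values in IVF males for one of the 2 main genes. Mt2 had 38.7, 14.3 and 45.5 CPM in the IVF males and 115, 250 and 148 CPM in the natural males. All IVF males were below all natural males, at a log2 fold change of -2.38 ± 0.63 (SE), and natural male 1 was the lowest of its group. Its neighbour Mt1 had 118, 24.4 and 169 CPM against 148, 400 and 355, and the groups overlapped through IVF male 3 and natural male 1. Slc30a1, a zinc exporter, had 69.5, 69.6 and 82.3 CPM against 106, 94.5 and 105. The list of metallothioneins and zinc transporters, with all 17 genes tested, had a median of -0.09. Mt2 and Slc30a1 were its 2 genes lower at an unadjusted p under 0.05.

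Both metallothionein genes lie side by side on chromosome 8, and their promoters are shown because Mt2 separated the groups while Mt1 did not. Capitals mark matches to the metal response element, searched as TGCACNC or TGCGCNC on both strands (RefSeq, GRCm38.p6, plus strand, chr8:94172368-94172617 for Mt2 and chr8:94178839-94179081 for Mt1).
Mt2: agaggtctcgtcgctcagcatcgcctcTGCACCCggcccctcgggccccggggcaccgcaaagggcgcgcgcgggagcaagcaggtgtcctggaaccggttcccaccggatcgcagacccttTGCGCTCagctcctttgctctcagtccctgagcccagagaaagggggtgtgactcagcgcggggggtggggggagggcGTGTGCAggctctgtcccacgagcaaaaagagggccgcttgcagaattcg
Mt1: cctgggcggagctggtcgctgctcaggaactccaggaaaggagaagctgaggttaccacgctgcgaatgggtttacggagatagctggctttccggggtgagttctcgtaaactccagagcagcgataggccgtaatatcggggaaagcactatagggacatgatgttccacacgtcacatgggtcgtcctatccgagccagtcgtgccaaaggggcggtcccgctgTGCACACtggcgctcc
Mt2 held 3 matches in 250 bases, at bases 28, 123 and 201 of the printed sequence. Mt1 held 1 match in 243 bases, at base 228. Matches beyond the printed bases were not counted, so these numbers do not compare the whole promoters of the genes. Their bearing on the levels of Mt2 and Mt1 was not tested. At least 1 such match was found in 21.4% of the RefSeq promoters. The 3 genes printed were chosen after their values were seen.

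Of 18 listed markers of Kupffer cells and macrophages 17 passed the filter. Their median log2 fold change was -0.56, with 14 below 0 and 3 above. The list had 8 genes lower at an unadjusted p under 0.05, 0 called, and 9 for which all IVF males were below all natural males. Clec4f, a lectin of Kupffer cells, had 57.0, 48.2 and 61.6 CPM in the IVF males and 92.1, 63.8 and 78.5 CPM in the natural males. Cd5l, a secreted macrophage protein, had 76.5, 45.4 and 48.2 CPM against 101, 108 and 94.8. Csf1r, the receptor on which macrophages depend, had 36.6, 20.1 and 24.0 CPM against 44.2, 42.6 and 44.5. For Cd5l and Csf1r the natural males lay close together and IVF males 2 and 3 were lowest, while for Clec4f natural male 2 lay next to IVF male 3. The others that separated the groups were Folr2, Adgre1, Vsig4, C1qa, C1qb and C1qc. In these bulk samples fewer cells of a type and less RNA per cell cannot be told apart.

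IVF male 1 stood apart from the other IVF males for a further set of macrophage genes. Lyz2, lysozyme of myeloid cells, had 83.3 CPM in this liver, against 33.4 and 26.8 in the other IVF males and 41.5 to 56.5 in the natural males. Gpnmb, a gene of lipid-laden and scar-associated macrophages, had 4.67 CPM there and at most 0.435 CPM in the other 5. Ccr2, a chemokine receptor of monocytes, had 4.81 CPM there and at most 1.34 CPM elsewhere. Cd68 likewise was highest in IVF male 1, at 14.1 CPM. Without IVF male 1 the median of the Kupffer cell and macrophage markers was -0.77, with 0 of 17 above 0. Without IVF male 2 it was -0.44.

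**Figure D3:**
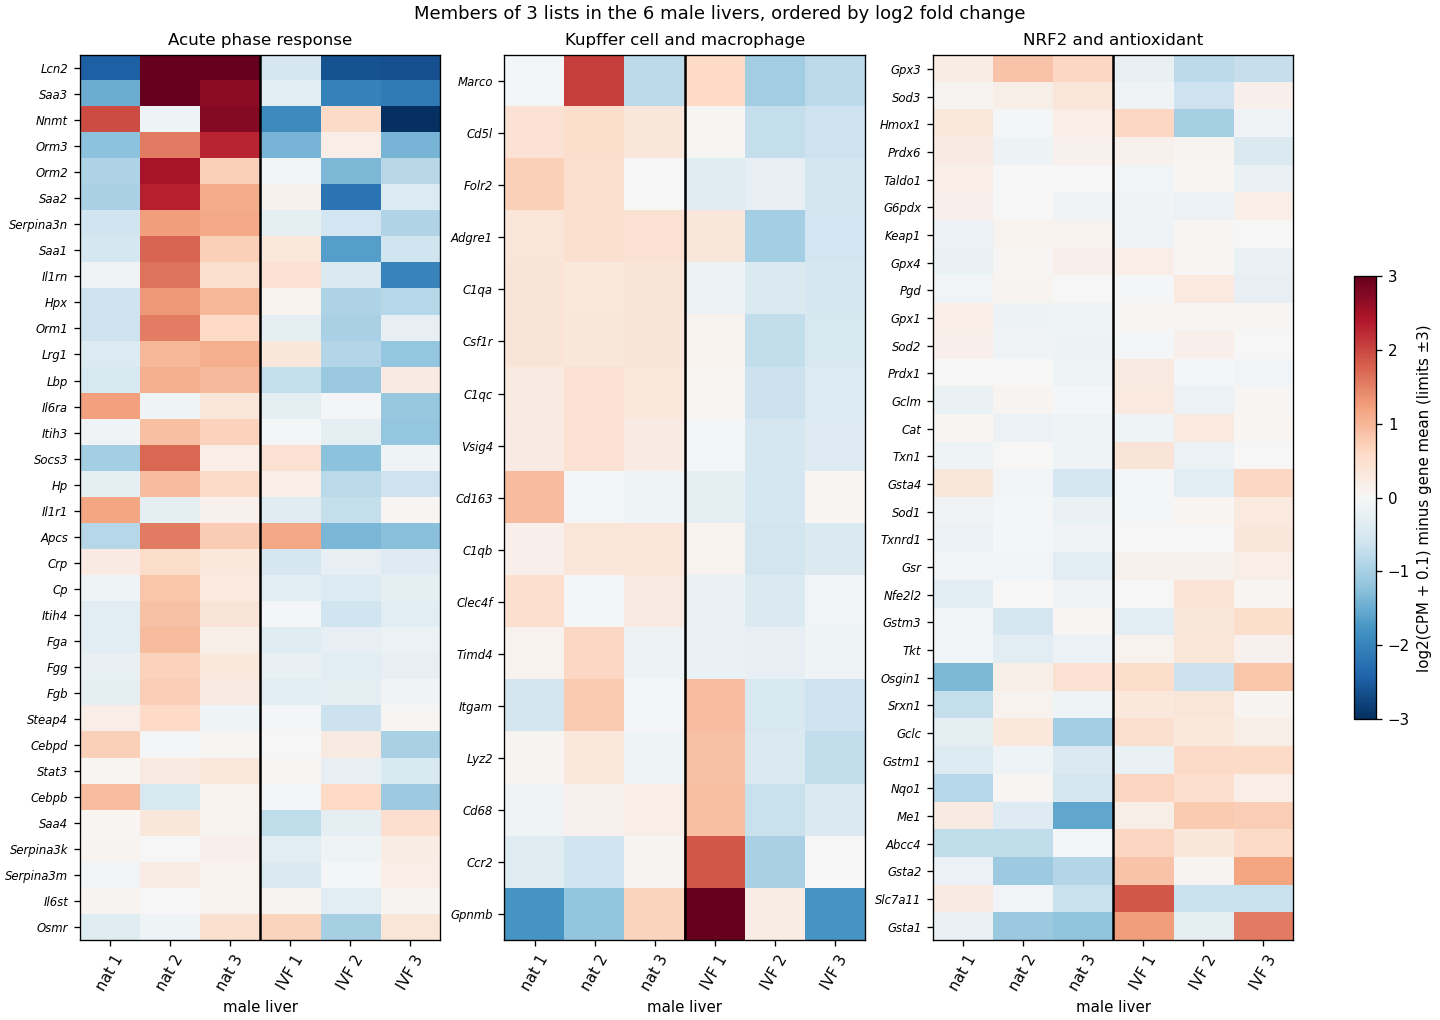
Rows are the tested members of 3 lists and columns the 6 male livers, with colour for log2(CPM + 0.1) centred on each gene (red high, blue low, limits ±3). The acute phase genes are high in natural males 2 and 3, Cd5l and Csf1r are lowest in IVF males 2 and 3, and Gpnmb and Ccr2 are high in IVF male 1.

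Lists of other cell types had medians nearer 0 than that of the macrophage markers, except for B and plasma cell markers. Of 14 hepatocyte markers all passed, with a median of -0.29, and their summed level was 115553 to 127521 CPM in IVF males and 143259 to 146353 CPM in natural males. Albumin makes up much of that sum. Sinusoidal endothelial markers had a median of -0.20 over 16 genes, with 5 lower without overlap and a summed level of 368 to 435 CPM against 421 to 486 CPM. Without IVF male 3 the median of the sinusoidal endothelial markers was -0.13. Stellate cell and fibroblast markers had -0.15 over 15 genes, at 380 to 463 CPM against 426 to 526 CPM. The median of the stellate cell and fibroblast markers was -0.05 without natural male 1, -0.06 without natural male 2, -0.09 without IVF male 2 and -0.24 without IVF male 1. Neutrophil markers summed to 3.10 to 11.1 CPM against 3.38 to 6.89 CPM, and 6 of 13 genes passed the filter. Of 11 B and plasma cell markers 8 passed, with a median of 0.79, from very few counts, and in the libraries thinned to equal totals the median of the B and plasma cell markers was -0.16. With genes averaging under 1 CPM left out it was -0.23, and without IVF male 3 it was 0.06. Without IVF male 2 it was 1.29, and without natural male 3 it was 1.23. The B cell gene Ms4a1 had 5, 4 and 20 counts in the IVF males and 1, 2 and 4 in the natural males. The part of cell makeup in the gene groups described here was not tested.

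Genes of NRF2, the factor that answers oxidative and electrophilic stress, and of glutathione metabolism were mostly above 0. Of 33 listed genes 32 passed, the median log2 fold change was 0.20, and 25 were above 0. In the list 6 were higher at an unadjusted p under 0.05 and 1, the plasma glutathione peroxidase Gpx3, was lower. Groups did not overlap for 6 genes on the higher side. Nqo1, a quinone reductase and a standard NRF2 target, had 5.84, 5.31 and 4.30 CPM in the IVF males and 2.01, 3.79 and 2.53 CPM in the natural males. Gsta2, a glutathione transferase, had 31.4, 18.3 and 39.4 CPM against 15.4, 8.09 and 9.33. Abcc4, an efflux pump for conjugates and bile acids, had 3.57, 2.85 and 3.40 CPM against 1.28, 1.30 and 2.21. In these 3 genes every IVF male exceeded every natural male, though by little for Nqo1 in IVF male 3 and for Gsta2 in IVF male 2.

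Gsta1 had 21.2, 7.33 and 26.4 CPM in the IVF males and 7.77, 4.04 and 3.80 CPM in the natural males. Here the groups overlapped, as IVF male 2 lay below natural male 1. Gm10639 and Gm3776, which lie in the same cluster of alpha-class glutathione transferase genes on chromosome 9, had log2 fold changes of 1.60 and 2.34. For both, IVF male 2 (2.90 and 2.36 CPM) was barely above natural male 1 (2.88 and 2.28 CPM). These 4 genes are close copies, and how reads matching several of them were counted is not given in the sources used here, so their values are uncertain one by one. Gsr, glutathione reductase, and Tkt, a transketolase of the pentose phosphate pathway, were higher without overlap at 0.30 and 0.40. Blvrb, a biliverdin reductase of haem breakdown, had 82.3, 70.4 and 63.7 CPM against 50.6, 45.8 and 35.8.

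Conjugating enzymes as a class went both ways. The 43 glutathione, glucuronosyl and sulfo transferases had a median of 0.04, with 3 higher and 4 lower at an unadjusted p under 0.05. Higher without overlap were 8 of them, among them 3 glucuronosyltransferases, Ugt2b5, Ugt2b36 and Ugt2b38, at 0.45, 0.31 and 0.43. The sulfotransferases differed among themselves, and Sult1c2 was higher without overlap, at 0.73. Sult1a1, which sulfates phenols, had 148, 172 and 124 CPM in the IVF males and 301, 323 and 284 CPM in the natural males. Sult1d1 had 68.9, 131 and 62.3 CPM against 231, 122 and 176, where IVF male 2 and natural male 2 overlapped. Sult1e1, the estrogen sulfotransferase, had 1, 2 and 0 counts against 9, 5 and 38 counts.

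Of cytochrome P450 genes of families 1 to 3, which oxidize drugs and steroids, 48 of 50 passed with a median of 0.00, and 2 were higher and 2 lower at an unadjusted p under 0.05. Cyp2b10, the classic target of the receptor CAR, had 1.10, 15.7 and 4.35 CPM in the IVF males and 41.0, 42.2 and 24.3 CPM in the natural males. The IVF males differed widely among themselves but stayed below the natural ones, at a log2 fold change of -2.33 ± 0.70 (SE). Por, the reductase that feeds electrons to all microsomal P450 enzymes, had 381, 396 and 413 CPM against 905, 443 and 622. Here the IVF males were tight and natural male 1 was the highest. Among transporters, Abcb1b, an efflux pump, had 1.03, 2.71 and 5.40 CPM against 0.959, 0.999 and 0.672, and Abcb11, the bile salt export pump, had 273, 330 and 401 CPM against 456, 569 and 425. The bile acid synthesis genes Cyp2c70 and Akr1d1 had log2 fold changes of -0.81 and -0.72, with groups that overlapped. Cyp7a1, the rate-limiting enzyme of that pathway, had 0.24.

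**Figure D4:**
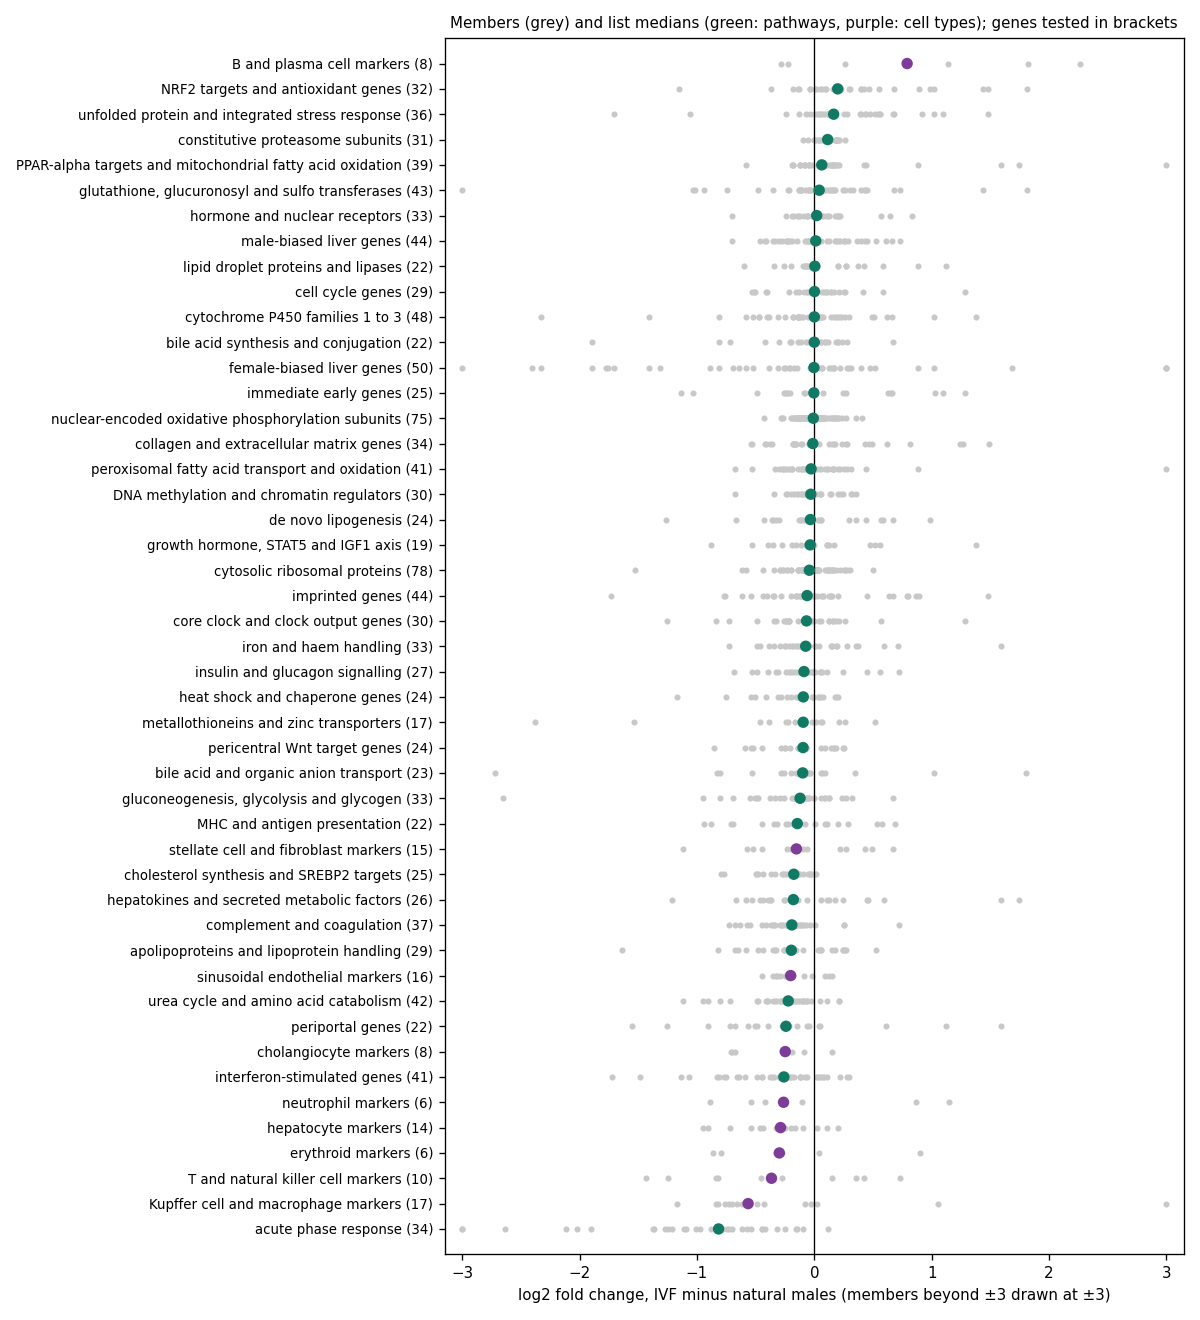
Each row is a gene list with at least 5 tested members (number in brackets). Grey points are members' log2 fold changes of IVF minus natural males, drawn at ±3 where beyond, and coloured points are medians (green for pathways, purple for cell types). The acute phase list has the lowest median of the pathways, at -0.82, and most other medians lie close to the 0.01 of all genes.

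Fat-making genes were split. Mlxipl, which encodes the carbohydrate-sensing factor ChREBP, had 126, 213 and 191 CPM in the IVF males and 114, 124 and 120 CPM in the natural males, so IVF male 1 was barely above them. Its target pyruvate kinase (Pklr) had 99.96, 121 and 186 CPM against 91.0, 65.6 and 99.2. Malic enzyme (Me1), which supplies NADPH for fat synthesis and is also a target of NRF2, had 101, 157 and 151 CPM against 106, 69.2 and 30.7. The lipogenic list had a median of -0.03 all the same, with 11 of 24 above 0. Fasting and PPAR-alpha targets varied between animals of 1 group. Cyp4a14, an omega-hydroxylase of fatty acids, had 382, 8.07 and 487 CPM against 12.2, 67.2 and 1.38. IVF males 1 and 3 were high and IVF male 2 lay among the natural males, as for Cyp4a10 (270, 22.6 and 293 CPM against 49.1, 129 and 15.7). The 39 tested genes of PPAR-alpha and mitochondrial fatty acid oxidation had a median of 0.06.

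Cholesterol synthesis and SREBP2 targets had a median of -0.17 with 2 of 25 above 0, but single libraries decided it. Without IVF male 3 the median of the cholesterol synthesis and SREBP2 targets was 0.07, with 15 above 0. Without natural male 3 it was -0.03, without natural male 1 -0.42 and without IVF male 2 -0.53. Genes of the urea cycle and amino acid catabolism had a median of -0.22, with 4 of 42 above 0 and 0 at an unadjusted p under 0.05. Cps1, the entry enzyme of the urea cycle, had 1654, 2077 and 1330 CPM against 3708, 1688 and 2908, and Bhmt, which makes methionine from homocysteine, had 284, 1222 and 314 CPM against 858, 1239 and 1848. IVF males 1 and 3 were the lowest for both. The median of the urea cycle and amino acid catabolism list was -0.11 without natural male 1, -0.14 without IVF male 3, and -0.34 without either IVF male 2 or natural male 2.

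Genes of the unfolded protein and integrated stress response had a median of 0.17, with 29 of 36 above 0, and 0 higher and 1 lower at an unadjusted p under 0.05. The lower one was Asns, which makes asparagine, with 2.68, 1.67 and 3.90 CPM against 1.01, 12.1 and 13.8, so natural male 1 was below all IVF males. Hspa5, the main chaperone of the endoplasmic reticulum, had 1563, 1035 and 3298 CPM in the IVF males and 740, 1460 and 1509 CPM in the natural males. IVF male 3 was far above the rest, and without it the median of the unfolded protein and integrated stress response was 0.00, with 18 above 0. Without IVF male 2 it was 0.37, and without natural male 2 it was 0.25. Subunits of the proteasome lay close to 0, with a median of 0.11, 28 of 31 above 0, and values from -0.09 to 0.26. The median of the constitutive proteasome subunits was 0.07 without natural male 1 and 0.19 without natural male 2. Oxidative phosphorylation subunits and cytosolic ribosomal proteins had medians of -0.01 and -0.04 over 75 and 78 genes.

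Interferon-stimulated genes had a median of -0.26, with 10 of 41 above 0, 4 lower at an unadjusted p under 0.05 and 6 lower without overlap. Those 4 were expressed at low levels. Oas1g, a sensor of double-stranded RNA, had 0.343, 0.246 and 0.400 CPM in the IVF males and 1.37, 0.999 and 0.949 CPM in the natural males. Oas3 had 0.755, 0.443 and 0.1001 CPM against 1.23, 0.999 and 1.30. Both were below the natural males in every IVF male, but without natural male 2 the median of the interferon-stimulated genes was -0.09. Complement and coagulation genes had a median of -0.19 and 4 of 37 above 0, with 8 lower without overlap. Pros1, the anticoagulant protein S, had 61.6, 53.0 and 50.6 CPM against 64.8, 89.6 and 109, and Mbl2, a mannose-binding lectin, had the opposite sign at 0.72. Natural males 2 and 3, high for acute phase genes, were also the higher ones for Pros1. The mean over the complement and coagulation genes of centred log2 CPM was -0.13, -0.09 and -0.11 in the IVF males. In the natural males it was 0.07, 0.15 and 0.11, so natural male 1 also lay above the IVF males.

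Among hormone receptors, Esr1, estrogen receptor alpha, had 16.8, 14.0 and 10.5 CPM in the IVF males and 17.4, 22.6 and 26.9 CPM in the natural males. The groups lay next to each other without overlap, at a log2 fold change of -0.70 ± 0.22 (SE). The 33 tested receptor genes had a median of 0.02. A list of genes known as higher in female livers, Abcd2 among them, had a median of -0.00 over 50 tested, and one of genes known as higher in male livers 0.01 over 44. The second list holds Esr1, although its mean in these natural animals was 34.2 CPM in females and 22.3 CPM in males. Atp6v0d2, a subunit of a proton pump and one of the former, had 1.10, 0.984 and 0.250 CPM against 0.822, 4.39 and 6.92, with natural male 1 among the IVF males.

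Clock genes cycle over the day, and the time of day at collection is not given in the labels. Of 30 tested clock and clock output genes, 11 were above 0, and the median was -0.07. At an unadjusted p under 0.05, Nr1d1, a repressor of the clock, was higher at 0.57 with groups that overlapped, and Por, described above, was lower. Dbp, an output of the clock, had 92.8, 73.0 and 45.0 CPM against 63.8, 49.4 and 97.4, and Per1 had 26.9, 44.7 and 25.1 CPM against 60.4, 10.0 and 50.6. Imprinted genes, which are expressed from 1 parental copy and are often studied after embryo culture, had a median of -0.06 over 44 tested of 64 listed. Higher at an unadjusted p under 0.05 were 2. Ddc, dopa decarboxylase, had 37.1, 36.5 and 84.1 CPM in the IVF males and 25.3, 30.8 and 30.4 CPM in the natural males, and Herc3 had 5.08, 7.13 and 4.35 CPM against 3.61, 3.30 and 2.65. Herc3 overlaps the imprinted gene Nap1l5, and the use of strand in counting is not given in the sources used here. Igf2r, the scavenger receptor of IGF2, had 70.4, 69.9 and 73.1 CPM against 88.4, 97.7 and 86.8. Genes of DNA methylation and chromatin regulation had a median of -0.03 over 30.

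Further named genes belong to other lists. Col27a1, a fibrillar collagen, had 29.5, 81.5 and 99.5 CPM in the IVF males and 36.5, 19.3 and 19.3 CPM in the natural males, where IVF male 1 lay below natural male 1. Fibronectin (Fn1) had 1374, 1511 and 1294 CPM against 1619, 2185 and 2244. Lrp1, an endocytic receptor for lipoprotein remnants, had 826, 882 and 805 CPM against 1191, 1375 and 1884. Its list, apolipoproteins and lipoprotein handling, had a median of -0.20, with 11 of 29 above 0 and 4 lower without overlap, and without natural male 3 the median was -0.11. Hepcidin (Hamp), the hormone that limits iron uptake, had 442, 332 and 644 CPM against 287, 2.85 and 180. All IVF males were above the natural males for Hamp, and natural male 2 was far below the other 5. Fkbp5, a chaperone induced by glucocorticoids, had 41.8, 20.2 and 43.4 CPM against 147, 36.2 and 53.6, with natural male 1 far above the rest.

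Whether the effect of IVF differed between males and females was tested over all genes as the male minus the female log2 fold change. By edgeR 0 of 13204 genes were called, with a smallest adjusted p of 0.314, beside 511 genes (3.87%) at an unadjusted p under 0.05. DESeq2 called 9, or 0.0682%. For Abcd2 the female log2 fold change was 0.64 ± 0.28 (SE), and the difference was 2.96 ± 0.44 (SE). For Esr1 the female value was 1.03 ± 0.22 (SE), opposite in sign to the male value, and the difference was -1.73 ± 0.31 (SE), with an edgeR adjusted p of 0.878. Mlxipl had -0.57 in females and Leng8 -0.51, against 0.57 and 0.73 in males. Abcc4 was on the same side in both, with 1.21 in females and 1.02 in males. The acute phase list had a female median of 0.23, and the Kupffer cell and macrophage markers one of 0.17. The difference between the sexes had an unadjusted p under 0.05 for 17 of 34 acute phase genes and 8 of 17 macrophage markers. The acute phase genes were high together in natural males 2 and 3, but not in natural male 1. Members of a list are thus not independent counts. No single gene passed the adjusted edgeR test of this difference, which does not show that the sexes responded alike, and list medians were not tested between the sexes.

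**Figure D5:**
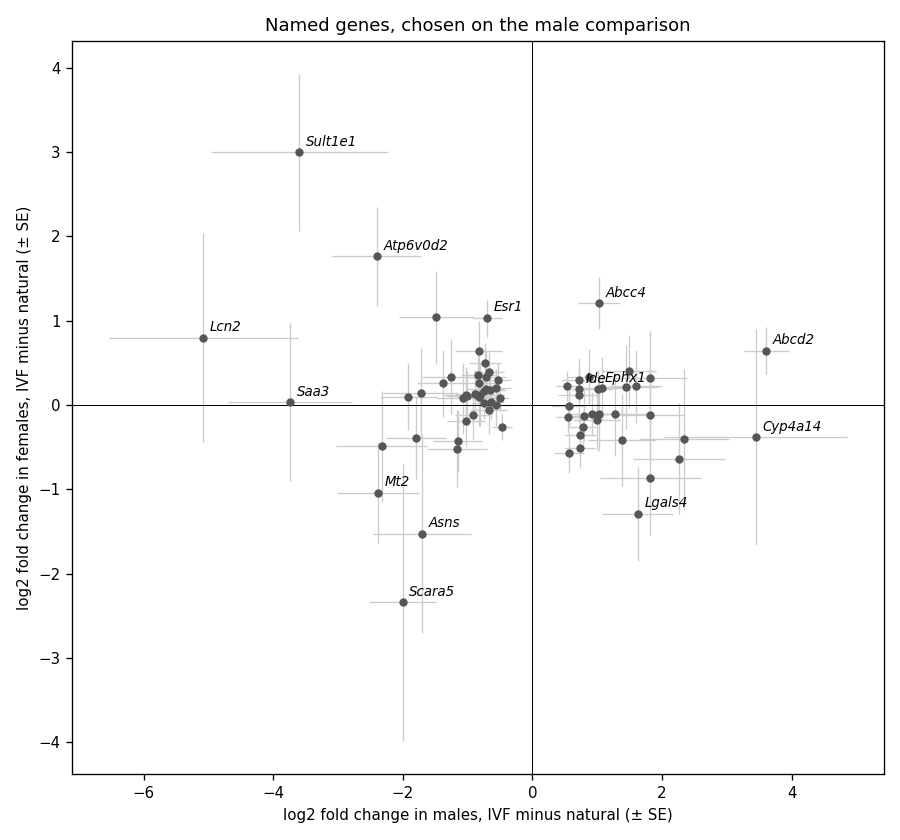
Each point is a named gene, with its log2 fold change of IVF minus natural in males (x axis) and in females (y axis), and bars of 1 SE. The genes were chosen on the male comparison, so their distance from 0 along the x axis is not a finding. Abcd2 lies at 3.61 in males and 0.64 in females, and Esr1 at -0.70 and 1.03.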

How the data were processed

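Liver messenger RNA was sequenced, per the labels' protocols. The authors deposited unnormalized read counts, 1 whole number for each gene symbol and library, in 1 table for 12 libraries. The submitters' processing notes name Trimmomatic 0.32, STAR 2.3.0e, featureCounts 1.5.0 and the mm10 build. The annotation, strand setting and treatment of reads with several matches are not given in the sources used here. Positions are from GENCODE M21 (GRCm38), and promoters were trimmed to bases before the gene's first exon. Of the tested genes, 10212 had a promoter sequence.

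Counts were fitted with edgeR 4.0.16 (R 4.3.3) using filterByExpr by group, TMM scaling and a model with 4 group means over 12 libraries. Calls were made where the p-value, adjusted over all tested genes (Benjamini-Hochberg), was under 0.05. The model code was tested on simulated data. limma 3.58.1 (voom) and DESeq2 1.42.0 served as alternatives, beside other scalings, filters, dispersion estimates, thresholds, thinned counts, a fit to the males alone, no Rn45s and leaving out each library. Replicates are numbered in accession order. The sex labels were checked on Xist and Y-linked counts and held. No pair among the 6 male libraries agreed within sampling noise, and pairs with a female library were not compared.

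Genes were named by a rule. It takes called genes, the 12 of smallest unadjusted p in each direction with a mean of at least 5 CPM in the higher group and no overlap, up to 4 per list, and DESeq2 or voom calls. A few others illustrate their list and were chosen after their values were seen: Alb, Ttr, Ass1, Abcd3, Cat, Irs1, Fgg, Stat3, Hpx, Mt1, Clec4f, Csf1r, Adgre1, Vsig4, C1qa, Lyz2, Gpnmb, Ccr2, Cd68, Nqo1, Gsr, Tkt, Ugt2b5, Ugt2b36, Ugt2b38, Sult1c2, Abcb11, Cyp7a1, Pklr, Cyp4a10, Cps1, Bhmt, Hspa5, Dbp, Per1, Igf2r and Hamp. The members and lists were chosen with earlier results of these data known.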

Additional observations from a re-analysis of the deposited data

How the results depend on the processing

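The count of 1 called gene in males held, with Abcd2 as that gene, under the other scalings, filters, thresholds, dispersion estimate, thinned counts, the fit to males alone, without Rn45s and without the 2 shallowest female libraries, the last chosen after seeing the data. It was 5 by DESeq2, which added Ide, Ephx1, 9030619P08Rik and Saa3, and 0 by limma voom. Leaving out 1 library gave 0 to 1, with 0 without natural male 2 or natural male 3, and the cause was not tested. For the difference between the sexes DESeq2 gave 9 genes, voom 0, and leaving out 1 library 0 to 0 by edgeR. All 73 genes named by the rule kept the sign of their log2 fold change under every alternative run, while 35 of 51 list medians changed sign under at least 1. Scaling by library size alone moved the median of all genes from 0.01 to 0.14, but relative to it the acute phase response stayed at -0.83 and -0.82. No paired analysis was possible because the labels give the groups no shared replicate numbers. Totals of 14002847 to 27832271 counts leave genes near 1 CPM with few reads.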
